A study of Mus musculus with 9 samples.

Results

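The genes for 8 very large or thick filament binding proteins of the muscle sarcomere were followed through muscle differentiation, lactate exposure and mature muscle: titin (Ttn), nebulin (Neb), the myosin binding proteins Mybpc1, Mybpc2 and Mybph, and the myomesins Myom1, Myom2 and Myom3. They were chosen by name as the giant and M-band protein genes and matched by symbol to the Ensembl identifiers of the count files, which together list 47529 genes. All 8 were found in the files of both tissue and cultured cells. Mouse RNA sequencing gave 9 libraries from cells and tissue of C57BL/6 mice. MB were primary myoblasts kept in growth medium with serum and basic fibroblast growth factor (2 libraries), and MT were myotubes formed from such cells over 3 days in differentiation medium (2 libraries). MB_lac were myoblasts given 10 mM sodium-L-lactate (2 libraries), for which the MB, given PBS, were the control, and GAS was whole gastrocnemius muscle of young adult female mice (3 libraries). The labels name no transgene or mutation in any group.

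Titin spans each sarcomere from the Z-disc to the M-band and acts as a molecular spring and a scaffold for assembly. Nebulin lies along the thin filament and helps to set its length, the MyBP-C proteins bind the thick filament in the C-zone and tune myosin, and the myomesins crosslink thick filaments and titin at the M-band. In skeletal muscle Mybpc1 encodes the slow and Mybpc2 the fast MyBP-C, Mybph encodes the smaller relative MyBP-H, and Myom2 and Myom3 are the myomesins best known from fast and from slow or intermediate fibers.

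The members differ widely in size, so levels were compared between genes only after division by length. In the GENCODE M21 annotation of mm10 (GRCm38), Ttn lies on the minus strand at chr2:76703980-76982547, with 345 merged exons and 116.8 kb of exonic sequence. Neb is on the same strand of the same chromosome at chr2:52136647-52378474 and has 26.6 kb of exonic sequence. Mybpc1 (chr10:88518279-88605152), Mybpc2 (chr7:44501699-44524656) and Mybph (chr1:134193448-134201232) have 4527, 3611 and 2329 exonic bases. Myom1 (chr17:71002633-71126856), Myom2 (chr8:15057653-15133541) and Myom3 (chr4:135759715-135815564) have 10459, 8853 and 6038. Of the exonic bases of Mybph, 49.9% also belong to Adora1, the adenosine A1 receptor gene on the opposite strand, so its counts are uncertain, since the sources used here do not state that strand was used in counting. Adora1 itself had 258 to 323 counts in GAS and 33 and 26 in MT. For the other members the shared part was at most 5.57%.

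Because the members turned out to rise together in MT, the sequence before the start sites of the titin and myosin binding protein genes is shown. RefSeq start sites (GRCm38.p6) were on hand for 6 of the 8 members: Ttn, Mybpc1, Mybpc2, Mybph, Myom1 and Myom3. The window searched ran from 250 bases before to 50 bases after the start, on both strands, for the E-box (CANNTG), the MEF2 site, the serum response element and the MCAT box (CATTCC). The bases before the start are given 5′ to 3′ on the strand of the gene, for Ttn at chr2:76982548-76982797 (minus), Mybpc1 at chr10:88605153-88605402 (minus), Mybpc2 at chr7:44524670-44524919 (minus) and Mybph at chr1:134193198-134193447 (plus). Capitals mark every match to any of these 4 motifs.
Ttn: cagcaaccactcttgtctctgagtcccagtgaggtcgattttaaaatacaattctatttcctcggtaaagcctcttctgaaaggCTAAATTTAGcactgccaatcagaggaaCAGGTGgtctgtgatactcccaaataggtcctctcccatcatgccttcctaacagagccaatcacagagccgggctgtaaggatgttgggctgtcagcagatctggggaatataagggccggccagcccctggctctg
Mybpc1: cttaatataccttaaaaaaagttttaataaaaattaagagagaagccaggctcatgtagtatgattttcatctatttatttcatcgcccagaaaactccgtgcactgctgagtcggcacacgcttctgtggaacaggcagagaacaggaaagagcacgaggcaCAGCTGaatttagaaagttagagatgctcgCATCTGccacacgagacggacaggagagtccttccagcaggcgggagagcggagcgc
Mybpc2: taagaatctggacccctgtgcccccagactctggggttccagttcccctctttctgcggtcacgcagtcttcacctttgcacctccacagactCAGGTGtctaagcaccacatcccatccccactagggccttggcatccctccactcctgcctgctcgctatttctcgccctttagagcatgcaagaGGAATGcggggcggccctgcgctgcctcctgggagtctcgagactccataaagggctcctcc
Mybph: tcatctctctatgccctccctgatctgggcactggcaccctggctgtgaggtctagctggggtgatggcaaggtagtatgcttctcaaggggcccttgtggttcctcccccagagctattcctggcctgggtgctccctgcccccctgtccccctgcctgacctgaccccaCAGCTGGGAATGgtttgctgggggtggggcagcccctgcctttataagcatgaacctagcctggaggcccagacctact
In the Ttn sequence the first run of capitals is a MEF2 match (CTAAATTTAG) and the second an E-box (CAGGTG), 138 bases before the start. Mybph holds an E-box (CAGCTG) directly followed by an MCAT match on the other strand (GGAATG), which the capitals join into one run. Mybpc2 has an E-box and an MCAT match upstream, and Mybpc1 has only E-boxes. An E-box was found in 6 of 6 members and in 72.3% of 32851 promoter windows of 300 bases. An MCAT box was found in 3 of 6 members (14.7% of all windows) and a MEF2 site in 2 of 6, Ttn and Myom3 (1.86%). A serum response element was found in 1 of 6, Myom1 (1.63%). For Myom1 the bases before the RefSeq start were chr17:71019307-71019556 (plus). They lie inside the GENCODE span of the gene, which begins at 71002633. These matches describe letters in a window, and no binding was measured at them.

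The libraries differed in depth and in 1 case in breadth. GAS libraries, made from poly(A) RNA, held between 19307793 and 19941574 counts, and those of cultured cells, prepared by Smart-seq2 from a small input of total RNA, between 5198247 and 10839516. At this depth 3 counts, taken as the limit of detection for counting error only, equal 0.152 to 0.155 CPM (counts scaled to a common library size) in GAS and 0.239 to 0.531 CPM in the cultured cells. MT replicate 1 had counts for 28599 genes against 15548 to 17965 in the other cultured libraries. All 3 myoblast markers were detected in MB, at a summed 717 to 1319 CPM. All 3 markers of differentiated muscle were detected in MT, at a summed 2291 to 3876 CPM against 247 to 896 in MB. Of these, Ckm and Myog passed as higher. Des, which alone was at 1466 and 2790 CPM in MT, did not pass (edgeR, adjusted p = 0.0794). In MT the myoblast markers summed to 172 to 373 CPM, and only Pax7 passed as lower in the test described below. The 3 markers of cycling cells summed to 489.7 to 897.5 CPM in MB and 129.4 to 205.9 in MT. Top2a and Ccnb1 passed as lower and Mki67 did not (edgeR, adjusted p = 0.143), so RNA of both kinds remained in MT. Markers of fibroblasts also differed: all 5 of Pdgfra, Col1a1, Col3a1, Dcn and Lum were detected in MT at a summed 14008.5 to 25720.6 CPM, against 3 of 5 at 222 to 504 CPM in MB, where Dcn and Lum were at or under the limit of 3 counts. The labels call the libraries biological replicates without saying whether cultures or animals were separate, so the p-values below measure the spread between these samples.

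All 8 members were higher in MT than in MB, the comparison of myotubes after 3 days of differentiation with myoblasts in growth medium. The increases were between 4.34 and 10.15 on the log2 scale, with a median of 7.18, while the median over all 12921 genes tested was 0.07. In edgeR's quasi-likelihood test with Benjamini-Hochberg adjustment, 8 of 8 members passed as higher (adjusted p under 0.05 and absolute log2FC over 0.5) and 0 of 8 as lower, where 11.0% of all genes tested were called higher and 6.86% lower. Both MT libraries lay above both MB libraries for each member, a separation found for 33.5% of all genes tested. Mybpc1, Mybpc2 and Myom1 passed the filter on low counts through the MT libraries alone. The other 5 members had at least 10 counts in every library, and in a fit limited to such genes 5 of 5 were higher, against 7.19% of the 10648 genes in that fit.

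**Figure D1:**
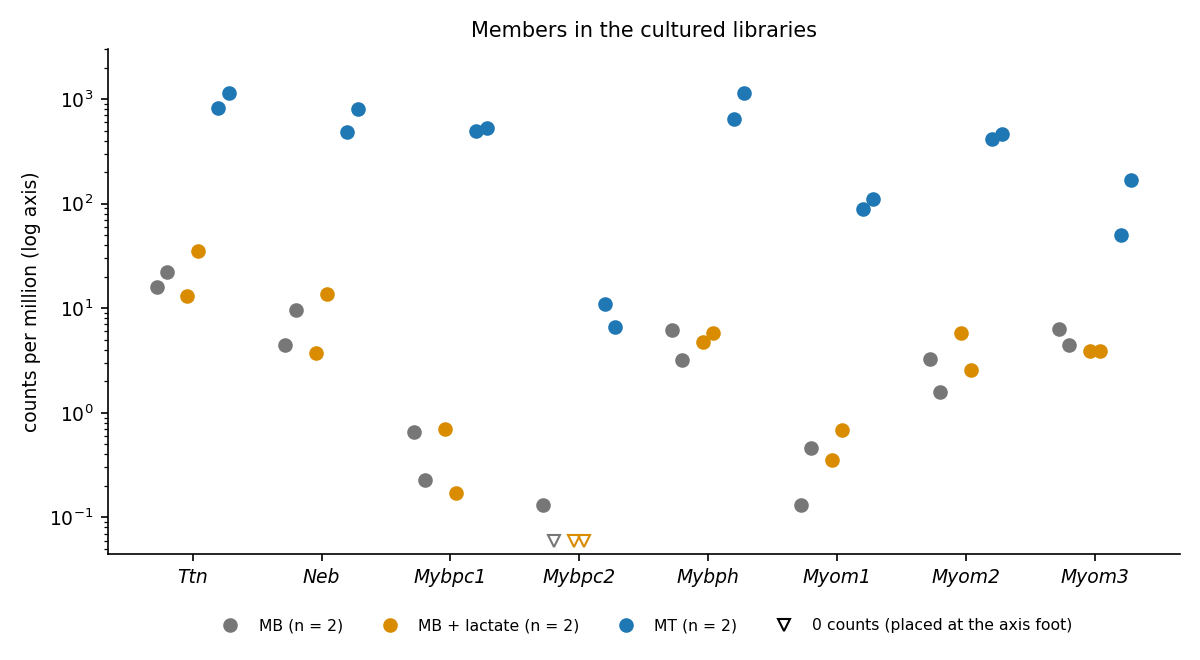
CPM on a log axis for each member in the cultured libraries, 1 point per library, with MB in grey, lactate-treated MB in orange and MT in blue; open triangles mark libraries with 0 counts. For all 8 members both MT points lie above every MB and lactate-treated point, from Mybpc2 at 6.61 and 11.1 CPM to Ttn at 814 and 1157 CPM.

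Ttn was read 123 and 193 times in the MB libraries and 10214 and 9460 times in the MT libraries, that is, 16.1 and 22.0 CPM against 814 and 1157 CPM. Neb was at 4.44 and 9.58 CPM in MB and at 489 and 804 CPM in MT. Both giants were therefore readily counted in myoblasts, unlike some smaller members. Per kb of exonic sequence their mean level in MB was low, at 0.163 CPM for Ttn and 0.264 for Neb. This was below Mybph (2.00) and Myom3 (0.888), close to Myom2 for Neb (0.275), and above Mybpc1, Mybpc2 and Myom1. For both giants the MT libraries were far from overlapping the MB libraries. The log2FC of Ttn was 5.68 ± 0.61 (SE, edgeR, adjusted p = 0.000235, 2 libraries a group). That of Neb was 6.50 ± 0.67 (adjusted p = 0.000201). Counts per length of Ttn were 0.379 and 0.328 of those of Neb in the MT libraries, and 0.823 and 0.523 in MB, where Neb rested on 34 and 84 counts.

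Among the myosin binding proteins, Mybpc1 had the steepest increase of the 8. It had 5 and 2 counts in MB and 6198 and 4308 in MT, which equal 0.653 and 0.228 CPM against 494 and 527 CPM. The MT replicates were close together (SD 23.4 CPM around 510), and the log2FC was 10.15 ± 0.74 (SE, edgeR, adjusted p = 8.72e-05). Mybph rose from 6.14 and 3.19 CPM to 652 and 1144 CPM, a log2FC of 7.58 ± 0.71 (edgeR, adjusted p = 0.000142). Reads over the part it shares with Adora1, itself at 33 and 26 counts in MT, may have been added or left out.

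Mybpc2, the fast paralog, passed the same test from much lower levels. It had 1 and 0 counts in MB and 139 and 54 in MT, or 11.1 and 6.61 CPM. Summed over libraries and scaled for depth this is a ratio of 153, with an exact 95% counting interval of 27.1 to 6070, so its size is poorly fixed by 1 MB count. The fitted log2FC of 6.87 ± 1.19 (SE, edgeR, adjusted p = 0.00371) depends on the prior count and was 9.40 without MB replicate 1 and 5.85 without MB replicate 2. With so few counts the broad library MT replicate 1 matters: 3854 protein-coding genes were counted there and in no other cultured library, at a median of 3.24 counts per kb of exon. This density over the Mybpc2 exons would give 8.40% of its 139 counts, or 47.3% at the 90th percentile of those genes. Mybpc3, the cardiac MyBP-C gene and 1 of those genes, had 31.5 counts per kb there, against 38.5 for Mybpc2. Without that library Mybpc2 was still higher in MT (log2FC 6.43). For Ttn the same median density would give 3.70% of the counts in MT replicate 1, for Myom3 3.09%, for Myom1 3.01%, and for the other 4 members at most 1.40%. At the 90th percentile these shares were 20.8% for Ttn, 17.4% for Myom3, 17.0% for Myom1 and at most 7.88% for the other 4.

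All 3 myomesins rose, by different amounts. Myom1, the M-band protein of all striated muscle, had 1 and 4 counts in MB and 1123 and 904 in MT, with 89.5 and 111 CPM in MT. Its log2FC was 8.30 ± 0.70 (SE, edgeR, adjusted p = 9.61e-05). Myom2 went from 3.27 and 1.60 CPM to 416 and 464 CPM, a log2FC of 7.49 ± 0.63 with the same adjusted p. Both had MT replicates within a narrow range of each other.

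Myom3, known from slow and intermediate fibers, changed least of the 8. It was at 6.27 and 4.45 CPM in MB and at 50.4 and 168 CPM in MT, a log2FC of 4.34 ± 0.66 (SE, edgeR, adjusted p = 0.00185). Relative to the mean, the MT replicates differed more for Myom3 than for any other member (SD 83.3 CPM around a mean of 109), and the log2FC was 3.04 without MT replicate 2 and 4.97 without MT replicate 1.

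**Figure D2:**
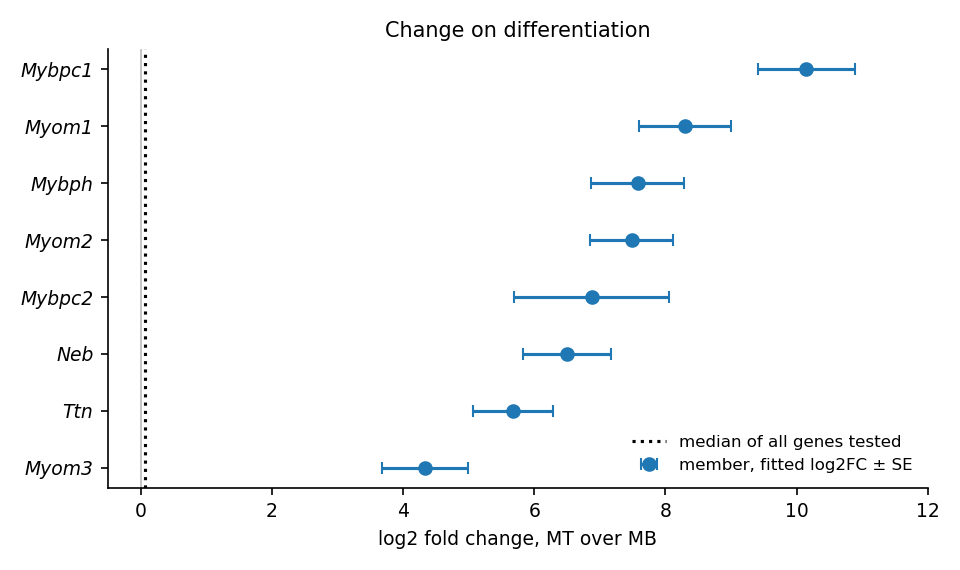
Fitted log2 fold change of each member in MT over MB (horizontal axis, points) with its standard error (bars), from 2 libraries a group; the dotted line is the median of all genes tested, 0.07. The members lie between 4.34 (Myom3) and 10.15 (Mybpc1).

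Leaving out a library moved the size of several of these changes. In such a fit the group left with 1 library is assumed to vary like the other, and the number of genes called higher over all genes went from 962 without MT replicate 1 to 4118 without MT replicate 2, so that a kept call says little. Neb had a log2FC of 5.93 without MT replicate 2, 5.95 without MB replicate 1 and 7.11 without MB replicate 2. Mybpc1 was at 10.92 without MB replicate 1 and 9.50 without MB replicate 2, and Myom1 at 7.60 and 9.37, since both rest on few MB counts. Mybph was at 6.94 without MT replicate 2. The fibroblast markers moved with the same comparison as the members. Of 4 tested, 3 were higher in MT (Col1a1, Dcn and Col3a1), beside 11.0% of all genes tested. With at least 10 counts in every library, 2 remained (Pdgfra and Col3a1), with 1 higher beside 7.19% of all genes in that fit. The part of these markers in the result was not tested.

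The order of the members by level per length differed between the groups. Levels are given as RPKM, that is, CPM divided by the exonic length in kb. In MB, where all 8 were low, Mybph (2.64 and 1.37 RPKM) and Myom3 (1.04 and 0.737 RPKM) led, and each of the other 6 was below 0.370 RPKM in both libraries. In MT, Mybph led with 280 and 491 RPKM, followed by Mybpc1 (109 and 116) and Myom2 (47.0 and 52.4), and the values of these 3 did not overlap with each other or with the rest. Neb (18.4 and 30.2), Myom3 (8.35 and 27.9), Myom1 (8.56 and 10.6) and Ttn (6.97 and 9.91) came next, and each of them overlapped with its neighbor in this order, so their order was not resolved by 2 libraries. Mybpc2 was last at 3.07 and 1.83 RPKM and lay below all others.

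In GAS, Mybpc2 was the most abundant member. It had 1955, 1625 and 1916 RPKM in the 3 replicates, a mean of 1832 ± 181 (SD, n = 3), which placed it at rank 30 of the 19415 genes with counts. Its lowest library was far above the highest library of any other member.

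Neb, Mybph, Mybpc1 and Myom2 followed as a group of like level, and each overlapped with the next in the order. Neb was at 241, 222 and 271 RPKM and Mybph at 252, 227 and 223. Mybpc1 was at 202, 230 and 180 RPKM and Myom2 at 200, 183 and 200. Their means lay between 194 and 245 RPKM, at ranks 139 to 173 among all genes.

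Myom1 and Ttn came after them, with overlapping values. Myom1 was at 149, 137 and 148 RPKM (rank 233) and Ttn at 129, 117 and 144 RPKM (rank 264). Without division by length, Ttn ranked 9 among all genes by CPM, at 15036, 13616 and 16875, since its transcript is so long.

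Myom3 was last by a wide margin, at 4.88, 6.88 and 4.66 RPKM and rank 4424. The 8 members together held 3.07% to 3.54% of all counts in GAS, against 0.349% and 0.456% in MT and 0.00317% and 0.00468% in MB. When the longest transcript was used in place of all exonic bases, Myom2 (339 RPKM) and Myom1 (268) moved up to ranks 2 and 4 of the members in GAS, while Mybpc2 stayed first and Ttn and Myom3 last. The order in MT was the same with both lengths.

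**Figure D3:**
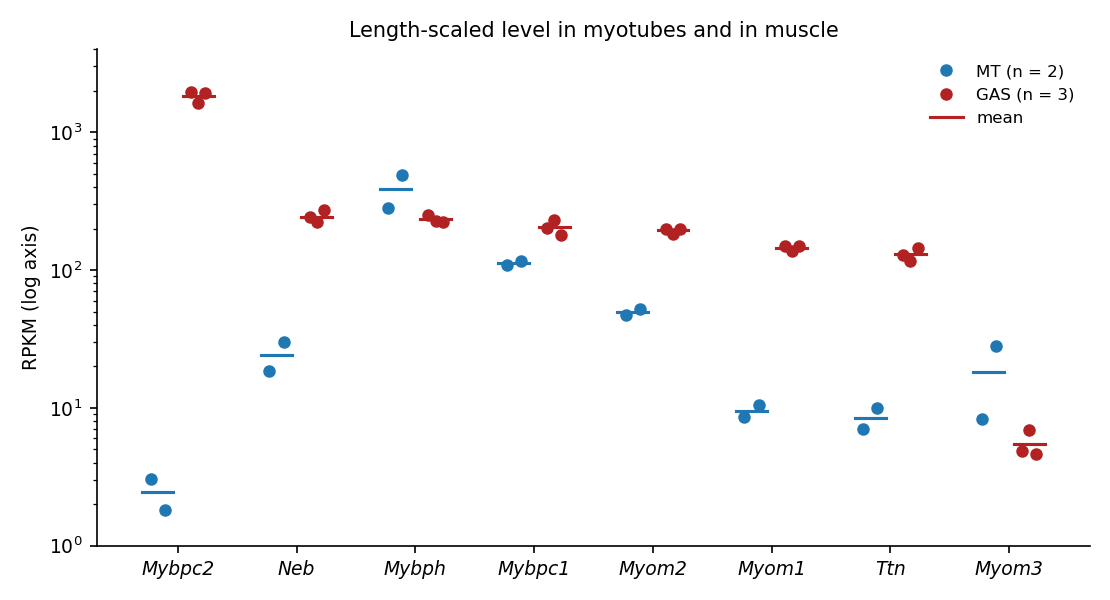
RPKM on a log axis for each member in MT (blue, 2 libraries) and GAS (red, 3 libraries), in the order of their GAS level; points are libraries and horizontal lines are means. Mybpc2 is highest in GAS (1832 on average) and lowest in MT (2.45), while Myom3 is lowest in GAS and Mybph is at 234 in GAS and 385 in MT.

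GAS and MT were made with different protocols, so their levels were set side by side and not tested, and tissue and protocol cannot be told apart. The ratio of mean RPKM, GAS over MT, was 748 for Mybpc2, 15.4 for Ttn, 15.1 for Myom1, 10.1 for Neb, 3.91 for Myom2 and 1.81 for Mybpc1. It was 0.608 for Mybph and 0.302 for Myom3. Over the 8465 genes with a mean of at least 1 RPKM in both groups the median ratio was 0.614, so Mybph lay at about that median and Myom3 below it. The ratio of Mybpc2 was above that of 99.9% of these genes, and those of Ttn, Myom1 and Neb above 98.5%, 98.5% and 97.6%. Genes with more than 10 kb of exonic sequence had a median ratio of 0.868 (n = 656) and shorter ones 0.594 (n = 7809), a difference that moves in the same direction as the high ratios of Ttn, Neb and Myom1, and its part in them was not tested. GAS is also whole tissue in which RNA of endothelium and fibroblasts was measured. The 3 endothelium markers summed to 109 to 130 CPM in GAS and to at most 10.2 CPM in MT. The 5 fibroblast markers summed to 477 to 565 CPM in GAS but to 14008.5 to 25720.6 CPM in MT. Of these, Col1a1 and Col3a1 were higher in MT, Pdgfra and Lum were lower, and the Dcn values overlapped. In bulk RNA fewer cells of a type cannot be told apart from less RNA per cell.

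Within the myosin binding proteins, the leading paralog differed between cultured and mature muscle. Of the summed RPKM of Mybpc1 and Mybpc2, Mybpc1 held 97.3% and 98.5% in the MT libraries and 9.36%, 12.4% and 8.59% in GAS. With Mybph included, Mybph held 71.4% and 80.6% in MT and 9.62% to 10.9% in GAS, where Mybpc2 held 78.1% to 82.6%. The 2 groups did not overlap for any of these shares. In MB the Mybpc1 and Mybpc2 counts were 6 and 2 in all, too few for a share.

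Among the myomesins Myom2 led in both, with 73.5% and 57.7% in MT and 56.0% to 56.7% in GAS. Myom1 held 13.4% and 11.6% in MT and 41.9% to 42.1% in GAS. Myom3 held 13.1% and 30.7% in MT but only 1.32% to 2.10% in GAS. In MB, where the 3 genes had 74 and 57 counts together, Myom3 held 73.1% and 76.7%. The share of Myom3 thus went from the largest in MB to the smallest in GAS, and its MT values lay between.

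**Figure D4:**
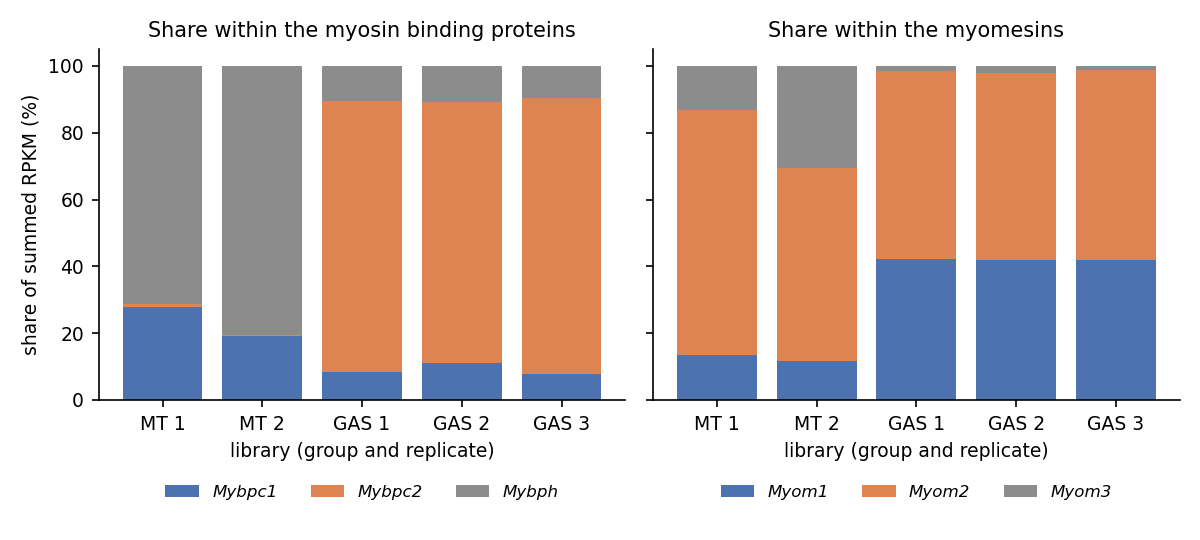
Stacked bars give the share of each paralog in the summed RPKM of its family, in percent, for the 2 MT and 3 GAS libraries; the left panel holds Mybpc1, Mybpc2 and Mybph and the right panel Myom1, Myom2 and Myom3. Mybpc2 takes 78.1% to 82.6% of its family in GAS and under 1% in MT, and Myom1 takes a larger share in GAS than in MT.

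The members also varied among the GAS replicates. Replicate 2 had the highest Mybpc1 (1039 CPM against 914 and 815) and Myom3 (41.5 CPM against 29.4 and 28.1). It had the lowest Mybpc2 (5866 CPM against 7061 and 6919), Ttn and Neb. Myom1 (1430.5 CPM against 1556.7 and 1550.4) and Myom2 (1620.5 CPM against 1768.4 and 1769.0) were also lowest in it. The same replicate had the highest CPM of the myosin heavy chain genes of slow and of intermediate fast fibers, with Myh7 at 385 against 330 and 225, Myh2 at 1800 against 795 and 1028 and Myh1 at 3976 against 2070 and 1408, and the lowest of the fastest type, Myh4, at 59780 against 68731 and 67729. Whether fiber composition has a part in the members' values was not tested, and 3 replicates do not allow a correlation. The ratio of Ttn to Neb per length was nearly constant over the replicates, at 0.534, 0.526 and 0.534.

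Lactate treatment of MB was the next comparison, and none of the members passed. Of the 8 members, 5 were tested among 11804 genes, and 0 of 5 differed between lactate-treated and control MB with edgeR's quasi-likelihood test. The share called over all genes was 0.0%, and it was also 0.0% at an unadjusted p under 0.01 with an absolute log2FC over 0.5. At an unadjusted p under 0.05, 5 genes passed with edgeR and 3 with DESeq2. With edgeR and the replicate number as a block 166 passed, and in each fit 0 passed after adjustment. Each count is far below the share of 0.05 of 11804 genes that p-values without any difference would give, so these tests were stricter than their nominal level. Deviations of same-numbered lactate-treated and control libraries correlated at 0.713, and the main fit counts such shared spread as error. A count of 0 called therefore says little about small changes. The lactate-treated libraries overlapped with the control libraries for 4 of the 5 members tested, and for Myom3 both lactate-treated libraries were lower, a separation in either direction that 11.0% of the genes tested showed.

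Ttn was at 13.1 and 35.5 CPM with lactate and at 16.1 and 22.0 CPM in control MB, a log2FC of 0.37 with a 95% interval of -1.17 to 1.91 (edgeR, adjusted p = 1). Neb was at 3.72 and 13.6 CPM against 4.44 and 9.58, a log2FC of 0.31 (interval -1.66 to 2.28). In both giants the library with replicate number 2 was the higher one with and without lactate. Within replicate number 1 the log2 ratio of lactate to control was -0.30 for Ttn and -0.26 for Neb, and within number 2 it was 0.69 and 0.50, so the sign differed between the numbers.

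Mybph was at 4.78 and 5.78 CPM with lactate and 6.14 and 3.19 CPM without, a log2FC of 0.21 (interval -1.23 to 1.65), again with opposite signs within the numbers (-0.36 and 0.86). Myom2 was at 5.84 and 2.55 CPM against 3.27 and 1.60, a log2FC of 0.79 (interval -0.96 to 2.53), and it was higher with lactate within both numbers (0.84 and 0.67). It rested on 14 to 33 counts a library. Myom3 was at 3.89 and 3.91 CPM against 6.27 and 4.45, a log2FC of -0.44 (interval -1.81 to 0.92), and lower within both numbers (-0.69 and -0.19). These intervals leave room for changes of more than 1 log2 unit in at least one direction for each of the 5 members.

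The other 3 members were too low to test. Mybpc1 had 4 and 1 counts with lactate and 5 and 2 without, and Myom1 had 2 and 4 against 1 and 4. Mybpc2 had 0 counts in both lactate-treated libraries, which allows up to 0.531 and 0.510 CPM, against 1 and 0 counts in control MB. No difference was detectable at this depth.

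**Figure D5:**
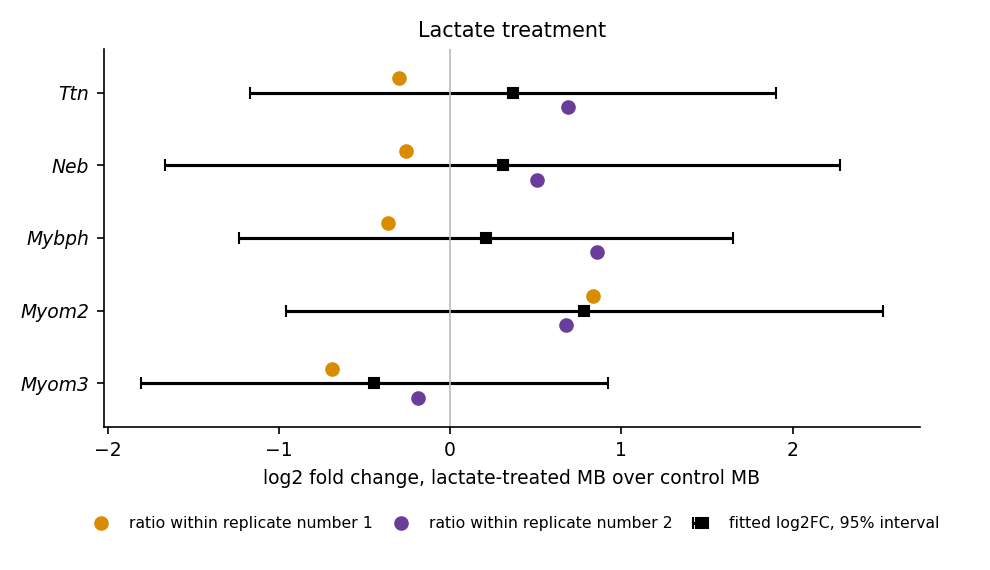
Log2 fold change of lactate-treated over control MB for the 5 members tested: black squares with bars are the fitted values with 95% intervals (2 libraries a group), and colored points are the ratios of CPM within each replicate number. Every interval includes 0, and the points of Ttn, Neb and Mybph fall on opposite sides of 0.

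Genes that work with the members were counted as lists. Of 16 partners of titin, 15 were tested, and 11 were higher and 0 lower in MT, with a median log2FC of 5.46 (5.40 with genes at 0 in MB put at their lower bound), where 11.0% of all genes tested were higher. As for the members, genes near 0 in MB entered this test through their MT counts alone, so each list was also counted among genes with at least 10 counts in every library, of which 7.19% were higher. Of the titin partners 9 remained in that fit, with 5 higher, 0 lower and a median of 1.96. Actn2, the Z-disc actinin that anchors titin, rose by 8.71 ± 0.73 and Tcap, the titin cap, by 8.54 ± 0.64 (log2FC ± SE, edgeR, adjusted p = 9.5e-05 and 8.72e-05). Cmya5, which encodes myospryn, had 0 counts in MB and 15.9 and 6.24 CPM in MT, at least 30.2-fold higher against the limit of 3 counts a library, or at least 17.0-fold without the broad library MT replicate 1. Ankrd1, a stretch-responsive titin binding protein, had a log2FC of -1.50 that did not pass (edgeR, adjusted p = 0.106). Sqstm1 and Fhl2 were also below 0, at -0.24 and -0.03, and did not pass (adjusted p = 0.811 and 0.97).

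Of 11 thin filament genes related to nebulin, 9 were tested, with 6 higher and 0 lower (median 6.44, or 5.89 with bounds) beside 11.0% of all genes higher. With at least 10 counts in every library, 6 remained, with 3 higher, 0 lower and a median of 2.89 beside 7.19% of all genes higher. Klhl41, which stabilizes nebulin, rose by 8.27 ± 0.61 (edgeR, adjusted p = 8.72e-05) and Acta1, skeletal actin, by 7.11 ± 0.90 (adjusted p = 0.000659). Xirp2 had 0 counts in MB and 34.3 and 9.30 CPM in MT, at least 59.4-fold higher, or at least 25.3-fold without MT replicate 1.

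Of 11 genes for the thick filament and its assembly, 10 were higher and 0 lower (median 7.96, or 7.72 with bounds), beside 11.0% of all genes higher. With at least 10 counts in every library, 6 remained, with 5 higher, 0 lower and a median of 7.42 beside 7.19% of all genes higher. Myh8, the perinatal myosin heavy chain, rose by 8.83 ± 0.70 (edgeR, adjusted p = 8.72e-05). Myh4 and Myh2 had 0 counts in MB, and their levels in MT were at least 371-fold higher for Myh4 and at least 36.9-fold for Myh2. Hsp90aa1, a chaperone used in myosin folding, had a log2FC of -1.75 that did not pass (adjusted p = 0.129).

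Of 7 close relatives of the members, 5 were tested and 1 was higher, beside 11.0% of all genes: Nrap, a nebulin family gene of early myofibrils, with a log2FC of 4.16 ± 0.65 (edgeR, adjusted p = 0.00223). Obsl1, Speg, Nebl and Lasp1 did not pass, with log2FC values of 0.48, -0.19, 1.90 and -1.23. With at least 10 counts in every library, 3 remained (Obsl1, Speg and Lasp1), with 0 higher, 0 lower and a median of -0.06. The share of all genes higher in that fit was 7.19%. Nrap, with 8 and 13 counts in MB, was not in it. Mybpc3, the cardiac MyBP-C, had 131 counts in MT replicate 1 and 0 in each of the other 8 libraries, and Mybphl also fell below the filter. Neither of the 2 splicing regulators of titin passed: Rbm20 had a log2FC of -0.49 (edgeR, adjusted p = 0.486) and Rbm24 one of 1.75 (adjusted p = 0.0838). With at least 10 counts in every library, 2 of 2 remained, with 0 higher and 0 lower. Of the 47 genes in these 5 lists, 29 could be tested with lactate, and 0 passed.

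Over the 6 cultured libraries, the 28 pairs of members had Pearson correlations of log2(CPM + 1) of at least 0.928 (Mybpc2 and Myom3), with a median of 0.979. These points share the difference between 2 MT and 4 MB libraries, so the values describe that step more than finer variation. Among 12885 genes, those most like Ttn were Ccdc181, Neb and Cd55 (r = 0.999 each). Those most like Neb were Gdpd2, Ccdc181 and Cd55 (0.999 each), with Cd55 and Gdpd2 at only 1.47 and 1.23 CPM in MT. Those most like Mybpc1 were Fhl1 (r = 0.9997), Fam20a (0.9996) and Thpo (0.9995), and those most like Myom2 were Vamp5, Rftn1 and Gm45837 (0.998 to 0.999). A correlation over 0.99 was reached by 68 genes for Ttn, 55 for Neb, 309 for Mybpc1 and 152 for Myom2.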

How the data were processed

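RNA sequencing counts of 9 libraries were used. The authors trimmed reads with Trim Galore (version 0.6.6 in the submitters' processing notes), aligned them to mm10 with HISAT2 2.2.1, counted them on genes with featureCounts (Subread 2.0.1) and deposited raw counts. The annotation release and the handling of strand and of reads with several alignments are not given in the sources used here. GENCODE M21 held 36429 of the 38293 genes listed for GAS and 45229 of the 46078 listed for cultured cells.

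CPM values used TMM factors, computed for cultured cells and for GAS separately, and RPKM is CPM per kb of merged exons. Tests of MT against MB, and of MB with and without lactate, each used the 4 libraries concerned (R 4.3.3, edgeR 4.0.16, filterByExpr, TMM, quasi-likelihood test, Benjamini-Hochberg adjustment over all genes tested). Genes past both an adjusted p of 0.05 and an absolute log2FC of 0.5 were called. SE is the absolute log2FC divided by the root of the F statistic, and 95% intervals use the t distribution with the degrees of freedom of that test. The fit was also run on simulated counts drawn independently for each library. Such counts hold no spread shared by replicate number, so that run cannot speak to it. GAS was not tested against cultured cells.

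The members and the gene lists were chosen with earlier results of these data known. Named are all 8 members and, from each list, up to 3 genes with the largest change past the threshold and genes going against most of their list. The other close relatives, the titin splicing regulators and, beside the GAS values, 4 myosin genes were named after their values were seen. Similar genes are the 3 with the highest Pearson correlation. Alternatives were RLE size factors, DESeq2 1.42.0, other filters and thresholds, all 6 cultured libraries in one fit, a replicate term, other lengths and library sizes, and leaving out each library. The counts of the lists at 10 counts and the bounds without MT replicate 1 were added after seeing the data. One gene of the rule is not reported here.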

Additional observations from a re-analysis of the deposited data

How the results depend on the processing

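All 85 alternative values of the 8 members in MT against MB, including the DESeq2 test, kept their direction and stayed past the threshold. Among them are the fits that leave 1 library in a group, in which a kept call says little. At least 10 counts in every library left 5 members to test, and 5 were higher. Adjusted p under 0.01 and absolute log2FC over 1 gave 8. Labels share replicate numbers 1 and 2 between groups, but only 2 pairs exist and the labels do not tie the numbers to a culture. Deviations of same-numbered libraries correlated at -0.131 for MT and MB and 0.713 for lactate-treated and control MB. With the replicate block 8 members were higher and 0 lower in MT, 0 differed with lactate, and over all genes 1447 were higher and 824 lower against 1425 and 887 without it. With crossed numbers, chosen after seeing the data, 8 members were higher, and 1192 genes were higher and 867 lower over all genes.

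With lactate, 45 of 50 alternative values kept their sign, and 0 members passed in any fit, including the nominal threshold. Leaving out a library in turn moved the log2FC of Ttn between -0.63 and 0.97, of Neb between -1.02 and 1.10 (-0.15 without MB replicate 1), of Mybph between -0.11 and 0.71 (-0.02 without lactate-treated replicate 2), and of Myom2 between 0.18 and 1.37 and Myom3 between -0.59 and -0.20. The cause was not tested.

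Of 16 places in the 2 orders by RPKM, 11 were kept with the longest transcript and 14 to 16 when a replicate was left out. The longest transcript moved the mean share of Myom2 in GAS from 56.4% to 55.3% and of Myom3 from 1.60% to 0.975%. Few MB counts limit the size of the changes of Mybpc1, Mybpc2 and Myom1, and 2 libraries a group limit the lactate comparison.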
